A study of Sus scrofa with 42 samples.

Results

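The BCL2 family was followed through the first cleavages of pig embryos in a table of FPKM values (fragments per kilobase of gene, relative to the reads of the library). Of 9 family genes looked up by name (BCL2, BCL2L1, BCL2L10, MCL1, BAX, BAK1, BID, BAD and BCL2L11), 8 had a row among the 15351 genes of the table and BCL2 had none. The study compared 42 single cells from 20 embryos, made by in vitro fertilization (IVF), with a maternal and a paternal genome, or by parthenogenetic activation (PA), with a maternal genome alone. For both, oocytes from slaughterhouse gilt ovaries were matured in vitro. IVF oocytes were incubated with sperm for 4 h. PA oocytes received electric pulses and then 6-dimethylaminopurine and cytochalasin B for 4 h, and embryos of both kinds were cultured in PZM-3 medium. In each method, 3 1-cell embryos were taken at 19 h, 6 blastomeres of 3 2-cell embryos at 27 h, 9 blastomeres of 3 4-cell embryos at 48 h, and 3 blastomeres of 1 8-cell embryo at 72 h. Thus the 8-cell stage rested on 1 embryo per method, and a parthenogenetic embryo is a model without sperm-derived RNA, centrosome or paternal alleles.

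Proteins of the BCL2 family decide whether the outer mitochondrial membrane stays closed. Anti-apoptotic members (BCL2, BCL2L1, BCL2L10, MCL1) hold the effectors BAX and BAK1 in check, and BH3-only members (BID, BAD, BCL2L11) bind to the anti-apoptotic members, or to the effectors, through a short helix called the BH3 domain. Once BAX or BAK1 opens the membrane, released cytochrome c starts the caspase cascade. In oocytes and early embryos, BCL2L10 and MCL1 are known as survival factors, and the embryo of the pig lives on maternal RNA until its own genome becomes active around the 4-cell stage.

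The BH3 domain is what these genes share in sequence, so its coding core is shown for the members described here. The reference sequence and annotation are those of RefSeq for Sscrofa11.1, the build of the deposited table. Each stretch is coding DNA in the direction of the transcript, with the codons of the invariant leucine and of the small residue and aspartate that end the core in capitals.
MCL1: gagaccCTGcgacgggtcGGGGACggggtg
BCL2L1: caagcgCTGagggaggcgGGCGATgagttt
BAX: gagtgtCTCaagcgcattGGAGATgaactg
BAK1: cgccagCTCgccatcattGGGGATgacatc
BID: aggcatCTCgcccgaataGGGGACaggatg
BAD: cgcgagCTCcggaggatgAGTGACgagttc
BCL2L11: caggagTTAcggcgtattGGAGACgaattt
They lie at chr4:98562867-98562896 on the plus strand for MCL1, chr17:35413750-35413779 on the minus strand for BCL2L1, chr6:54223258-54223287 on the plus strand for BAX, chr7:29811742-29811771 on the minus strand for BAK1, chr5:69851348-69851377 on the minus strand for BID, chr2:7841825-7841854 on the plus strand for BAD and chr3:45174083-45174112 on the minus strand for BCL2L11. Every stretch lies in a single coding exon. A glycine codon precedes the aspartate codon in all of them but BAD, which has a serine codon there. In the protein of BCL2L10 the same spacing of leucine, small residue and aspartate was not found, so no stretch is shown for it.

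The rows of the table are wider than some of these genes, which bears on what their values count. The row of MCL1 (chr4:98527907-98568965, plus strand) starts at the first base of ENSA and shares 13566 bases with it, whereas RefSeq places MCL1 at 98562092 to 98567014. The row of BCL2L1 (chr17:35315475-35415778, minus strand) holds all 5481 bases of ID1 and 192 bases of TPX2, both on the plus strand. BAD (chr2:7830920-7842862, plus strand) shares 50 bases with GPR137, and BAX (chr6:54210654-54229745, plus strand) shares 129 bases with NUCB1. BCL2L10 (chr1:119597088-119599685, plus strand), BID (chr5:69849002-69875853, minus strand), BAK1 (chr7:29807011-29815191, minus strand) and BCL2L11 (chr3:45161122-45201186, minus strand) overlapped no other row. The RefSeq interval of BCL2 lies within the row of KDSR, so reads of BCL2, if there were any, could not be seen under its name. Whether reads were counted by strand is not given in the sources used here.

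The cells carried the RNA of early embryos. Of 12 oocyte markers looked up, 10 were in the table, and their FPKM summed to 892 to 1046 in IVF and 866 to 1072 in PA 1-cell embryos, with BTG4, which works in the clearance of maternal RNA, the most abundant. The IVF 8-cell embryo had a sum of 76.2 and the PA 8-cell embryo one of 56.1. Of 14 cumulus and granulosa markers, 7 were in the table and summed to 0.247 to 19.3 FPKM per embryo, and STAR was the most abundant. Of 6 blood and immune markers, 3 were in the table and summed to at most 10.4 FPKM (IVF 4-cell embryo 1, CD68). Of 8 sperm markers, 2 were in the table, and the highest sum (10.9 FPKM, IVF 8-cell embryo) was ODF2, which is also a centrosomal gene. The part of these other cell types in the values of the BCL2 family was not tested.

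Depth was estimated from the reads on genes, which does not show that low transcripts would be seen. Dividing each FPKM by the value of 1 read gave whole reads for 14650 of 14692 genes above 0 (99.7%). The deviation allowed was 0.002 of a read at low values, and more at higher values and in a second pass over the remaining genes. The highest values were not checked. On the 14650 genes there were between 3969856 and 14035022 reads per cell (median 9743250). The medians of the groups ranged from 6623076 in PA 4-cell to 12733470 in PA 1-cell embryos. The genes that gave no whole reads held 14.9% to 64.9% of a cell's summed FPKM, so these totals are not whole libraries and the order of the groups in depth is not settled by them. The cDNA was multiplied by PCR and no molecular identifiers are named, so reads are not counts of molecules. A value of 0 is given as listed at 0, since GAPDH was at 0 in 11 and ACTB in 14 of the 42 cells. Reverse transcription that misses an RNA and a cell that lacks it cannot be told apart in 1 library per cell.

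At the start of development the family consisted mainly of BCL2L10 with BCL2L1 beside it, and at the 8-cell stage MCL1 led in the IVF embryo and BID, followed by MCL1, in the PA embryo. BCL2L10 fell between the 2- and 4-cell stages with both methods averaged, MCL1 and BID were higher at the 8- than at the 1-cell stage in both methods, BAD was found above 1 FPKM only in 8-cell blastomeres, and the effectors BAX and BAK1 were at or near 0 throughout. The plot of the members by cell shows this exchange.

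**Figure D1:**
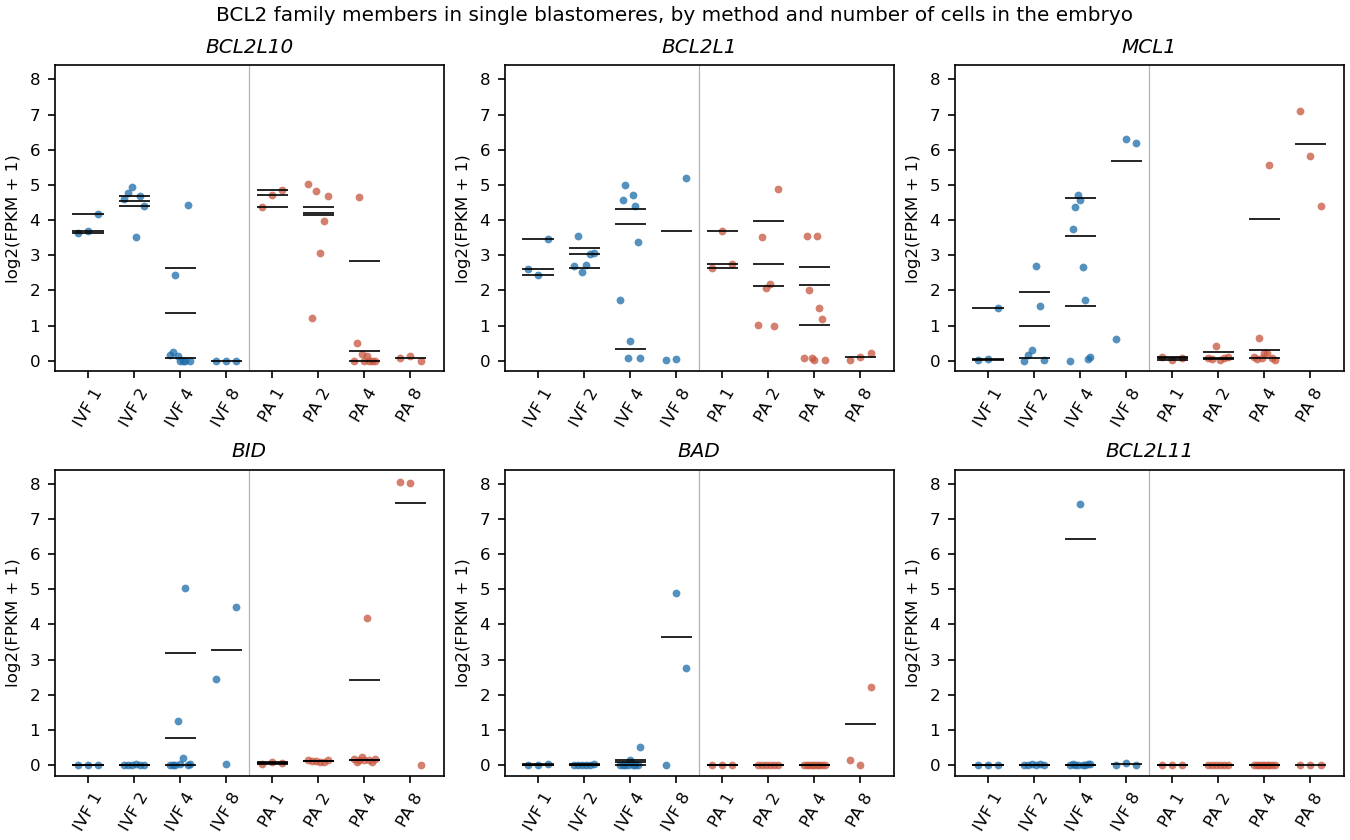
Level of 6 members as log2(FPKM + 1) on the y axis, by method and number of cells on the x axis (blue IVF, red PA). Points are single blastomeres and black lines are embryo means; BCL2L10 was high in 1- and 2-cell embryos, and MCL1 and BID reached 137 and 262 FPKM in single PA 8-cell blastomeres.

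BCL2L10, an anti-apoptotic protein known from oocytes, was the most abundant member at the first 2 stages. The IVF 1-cell embryos held 11.4, 11.8 and 17.0 FPKM, and the PA 1-cell embryos 19.8, 25.0 and 28.1 FPKM. All 3 PA values were above all 3 IVF values, but the difference (log2 fold change of IVF over PA -0.82, SE 0.767) was not called by limma, with an adjusted p of 1.00. At the 2-cell stage, IVF embryo means were 24.8, 20.1 and 22.3 FPKM. Those of PA were 16.6, 17.5 and 19.7 FPKM, so that the order of the methods was the other way round (log2 fold change 0.31, SE 0.767, limma adjusted p = 1.00). From the 1- to the 2-cell stage the change was 0.72 in IVF and -0.41 in PA (SE 0.767 each), and neither was called. With group means of 13.4 to 24.3 FPKM, BCL2L10 was above 89.2% to 95.4% of all genes in the table at the 1- and 2-cell stages.

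By 48 h, BCL2L10 was below 1 FPKM in 15 of 18 blastomeres. IVF 4-cell embryos had 1.58, 0.0475 and 5.17 FPKM, and PA 4-cell embryos 0.206, 6.17 and 0 FPKM, and none of these 6 embryos reached the lowest 2-cell embryo of its method. On the log2(FPKM + 1) scale the level fell by 3.19 in IVF (SE 0.767, limma adjusted p = 0.0473), against a median of -0.23 over all 8116 genes tested. BCL2L10 was 1 of 5 tested members, and the only one called at this step, where 1.11% of all genes were called. The change in PA was -3.20 (SE 0.767) with a limma adjusted p of 0.0750, and was not called, at a step where 0.394% of all genes were. It was called with median-ratio scaling, means of log2 values, single blastomeres and no trend (limma adjusted p = 0.0218, 0.00489, 0.0128 and 0.0496). In these fits 511 of 7336, 215 of 8116, 166 of 8116 and 46 of 8116 genes were called, respectively. The test of IVF against PA at this step gave a difference of 0.01 (SE 1.08), and with both methods averaged, where 4.14% of genes were called, the level fell by 3.20 (SE 0.542, limma adjusted p = 0.00300). The IVF call lay close to the threshold and was lost in 13 of the 20 fits that left out 1 embryo, with log2 changes from -3.83 to -2.55 over the 20. It was lost too without PA 2-cell 1-2 and 2-1 (limma adjusted p = 0.0668). The IVF call was lost as well with a pseudocount of 0.1, no filter, nuclear rescaling, median-ratio scaling, the groups compared alone and the embryo number as block. The averaged call was lost in none of the fits without 1 embryo, but with the groups compared alone (limma adjusted p = 0.0612).

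A single blastomere held nearly all BCL2L10 of each 4-cell embryo that still had it. In IVF 4-cell embryo 3, blastomere 3-3 had 20.7 FPKM (405 reads) while its sisters 3-1, 3-2 and 3-4 were listed at 0. In IVF embryo 1, blastomere 1-4 held 4.42 FPKM (66 reads), against 0.124 and 0.198 FPKM in its sisters. In PA embryo 2, blastomere 2-1 had 24.4 FPKM (421 reads), and the other 8 PA 4-cell blastomeres were between 0 and 0.411 FPKM. Embryonic activation markers (5 of 6 in the table) summed to 26.0 FPKM in IVF 3-3, the lowest of its group, where the median was 146. They summed to 73.1 FPKM in IVF 1-4, whose sisters had 68.1 and 31.8, and to 74.0 in PA 2-1, where the group's median was 215. By group mean, KLF4 (111 FPKM) led these markers in IVF 4-cell embryos and NANOG (87.9 FPKM) in PA ones. SALL4, the most abundant over all embryos, already had 72.7 FPKM in IVF and 76.6 FPKM in PA 1-cell embryos, so the sums do not measure activation alone. The part of the differences in these sums in BCL2L10 was not tested.

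PA 4-cell 2-1 needs care, because its library nearly repeats that of PA 2-cell 2-1. Over the 8116 tested genes, Pearson's r of log2(FPKM + 1) between them was 0.999, and it was 0.999 as well between PA 2-cell 1-2 and PA 4-cell 1-4. The next of the 861 pairs of cells had 0.908. BCL2L10 was 27.5 FPKM in PA 2-cell 2-1. Without these 4-cell blastomeres, the PA 4-cell mean of BCL2L10 went from 2.13 ± 3.51 to 0.0267 ± 0.0462 FPKM (SD, n = 3 embryos), and the change in PA was called, with a log2 change of -4.20 (limma adjusted p = 0.000850). In that fit 7.47% of all genes were called, against 0.394% with all cells. The call depended on which copies were left out. Without PA 2-cell 1-2 and 2-1 instead, no member was called at this PA step, where 64 of 8038 genes were.

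At the 8-cell stage, BCL2L10 was listed at 0 in all 3 IVF blastomeres and had 1 read in 2 of the 3 PA blastomeres (0.0515 and 0.0948 FPKM). Relative to 1-cell embryos it fell by 3.83 on the log2 scale in IVF (SE 1.08, limma adjusted p = 0.0234). In PA it fell by 4.58 (SE 1.08, limma adjusted p = 0.00853). The shares of all genes called in these comparisons were 14.3% and 13.8%, respectively. The IVF call was lost without IVF 1-cell embryo 3 (limma adjusted p = 0.0614) and under median-ratio scaling, whereas the PA call was kept in each of the 32 alternatives. None of these could leave out the lone PA 8-cell embryo.

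BCL2L1, which encodes the anti-apoptotic BCL-XL, had reads in every one of the 42 cells. Group means were 6.45 ± 3.03 (IVF 1-cell), 6.88 ± 1.52 (IVF 2-cell), 7.67 ± 3.77 (PA 1-cell) and 7.94 ± 5.96 FPKM (PA 2-cell, SD, n = 3 embryos each), which did not differ beyond their spread. It was not called in any of the 17 comparisons, although median-ratio scaling gave a called rise of 4.02 from the IVF 1- to the 8-cell stage (limma adjusted p = 0.0312). As deposited, the change there was 0.86 (limma adjusted p = 0.677), and it was -1.07 with means of log2 values. By the 4-cell stage, the embryos stood far apart, at 18.8, 0.272 and 13.7 FPKM for IVF, against 5.32, 3.43 and 1.03 FPKM for PA. The near-repeated blastomere 1-4 held 99.6% of the BCL2L1 of PA 4-cell embryo 1, and without it and 2-1 the PA 4-cell mean went from 3.26 ± 2.15 to 1.55 ± 1.82 FPKM (SD, n = 3 embryos). Of the IVF 8-cell blastomeres, 1-3 had 35.4 FPKM, the highest value of this gene, and its sisters 0.0122 and 0.0464 FPKM. All 3 PA 8-cell blastomeres were at or below 0.162 FPKM, and the change from the PA 1-cell stage was -2.92 (SE 1.26, limma adjusted p = 0.141), which was called with a pseudocount of 0.1 and without IVF 4-cell embryo 2 (limma adjusted p = 0.0446 and 0.0353). TPX2, a spindle gene whose row overlaps that of BCL2L1, had 35.0 FPKM as its highest and 0.0176 FPKM as its lowest value among the IVF 8-cell blastomeres, and its part in the reads of BCL2L1 was not tested.

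MCL1, a short-lived anti-apoptotic protein needed by the early embryo, went the opposite way to BCL2L10. At the 1- and 2-cell stages it stayed at or below 0.343 FPKM in all 9 PA cells. In IVF, 3 of 9 cells of these stages were above 1 FPKM (1.82 in IVF 1-cell embryo 3, 5.48 in 2-cell 2-2 and 1.92 in 2-cell 3-1), and the other 6 were at or below 0.249 FPKM. The highest of these cells had 1225 reads, so the signal there did not rest on single reads. IVF over PA was not called at the 1-cell (log2 fold change 0.45, SE 0.988) or the 2-cell stage (0.87, SE 0.988, limma adjusted p = 0.986). In those comparisons 0.0493% and 0% of all genes were called.

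At the 4-cell stage, MCL1 was above 1 FPKM in 6 of 9 IVF and in 1 of 9 PA blastomeres. The IVF embryos had 10.7, 23.9 and 1.95 FPKM, and the PA embryos 0.0616, 0.241 and 15.4 FPKM, so that the embryos of the methods overlapped. In PA the level of embryo 3 came from blastomere 3-1 alone (46.0 FPKM, 5308 reads), while 3-3 and 3-4 had 0.0570 and 0.0173 FPKM. The difference between methods was 1.77 (SE 0.988, limma adjusted p = 0.451) and was not called, as for all members at this stage, where 0.554% of genes were. The step from the 2-cell stage was 2.24 in IVF (SE 0.988, limma adjusted p = 0.244) and 1.35 in PA (SE 0.988, limma adjusted p = 0.694).

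In 8-cell embryos MCL1 was the most abundant anti-apoptotic member. The IVF blastomeres had 0.548, 78.3 and 72.005 FPKM and the PA blastomeres 137, 55.2 and 19.95 FPKM, so that 5 of 6 were above every 1- and 2-cell value. The embryo means were 50.3 and 70.8 FPKM. From the 4- to the 8-cell stage, MCL1 rose by 4.69 in PA (SE 1.40, limma adjusted p = 0.0376), at a step where 9.99% of genes were called. This call was lost without IVF 1-cell embryo 2, PA 4-cell embryo 1 or PA 4-cell embryo 2 (limma adjusted p = 0.0503, 0.0948 and 0.0842). It was lost as well with a pseudocount of 0.1 (limma adjusted p = 0.117), with no filter (0.0617), with the nuclear genes rescaled (0.0762) and with the groups compared alone (0.557). The step was 2.43 in IVF (SE 1.40, limma adjusted p = 0.377) and was not called, at a step where 6.97% of genes were. The difference between these steps was -2.26 (SE 1.98, limma adjusted p = 0.789), so the methods were not shown to differ. Averaged over both it rose by 3.56 (SE 0.988, limma adjusted p = 0.0209), where 12.6% of genes were called, a call that was lost with a pseudocount of 0.1 (limma adjusted p = 0.0907) and with the groups compared alone (0.333). Relative to the 1-cell stage it rose by 5.17 in IVF (limma adjusted p = 0.0185). The rise in PA was 6.10 (limma adjusted p = 0.00693). Both of the latter calls were kept in all 32 alternatives. Of these, 19 each left out 1 embryo, but never the lone 8-cell embryo of the method, without which the comparison cannot be made. Since each method had a lone 8-cell embryo, its spread was assumed equal to that within the remaining groups.

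The values of ENSA, whose bases lie inside the row of MCL1, are given because the rows overlap. ENSA was between 0 and 0.0112 FPKM in the IVF 8-cell blastomeres, where MCL1 reached 78.3 FPKM, and between 0.0138 and 24.6 FPKM in the PA ones. At the 1-cell stage ENSA had 4.41 ± 1.89 FPKM in IVF and 3.07 ± 2.78 FPKM in PA (SD, n = 3), while MCL1 had 0.619 ± 1.04 and 0.0475 ± 0.0275 FPKM.

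The makeup of the anti-apoptotic sum differed between the 1- and 2-cell embryos and the 8-cell embryos. Summed over BCL2L10, BCL2L1 and MCL1, FPKM were 20.5 ± 7.15, 30.6 ± 2.45 and 25.4 ± 5.24 in IVF 1-, 2- and 4-cell embryos (SD, n = 3). PA 1-, 2- and 4-cell embryos had 32.0 ± 6.15, 26.0 ± 7.41 and 10.6 ± 5.44. BCL2L10 made up 57.2% to 83.1% of the sum in the 1- and 2-cell embryos of both methods. MCL1 made up 81.0% of it in the 8-cell embryo of IVF and 99.8% in that of PA. In between, the leading member differed among the 6 4-cell embryos. MCL1 held 98.7% in IVF embryo 2 and 93.7% in PA embryo 3, BCL2L1 held 60.4% and 65.8% in IVF embryos 1 and 3 and 95.2% in PA embryo 1, and BCL2L10 still held 62.7% in PA embryo 2. PA embryos 1 and 2 each hold a near-repeated blastomere. Without 1-4 and 2-1, BCL2L1 held 35.1% in PA embryo 1 and 94.3% in PA embryo 2, BCL2L10 held 0% and 2.11%, and the PA 4-cell sum was 6.77 ± 8.53 FPKM (SD, n = 3). The sums of PA 4-cell embryos were 5.59, 9.85 and 16.4 FPKM, and the 8-cell embryos had the highest (62.1 in IVF and 70.9 FPKM in PA). These shares and sums were not tested.

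**Figure D2:**
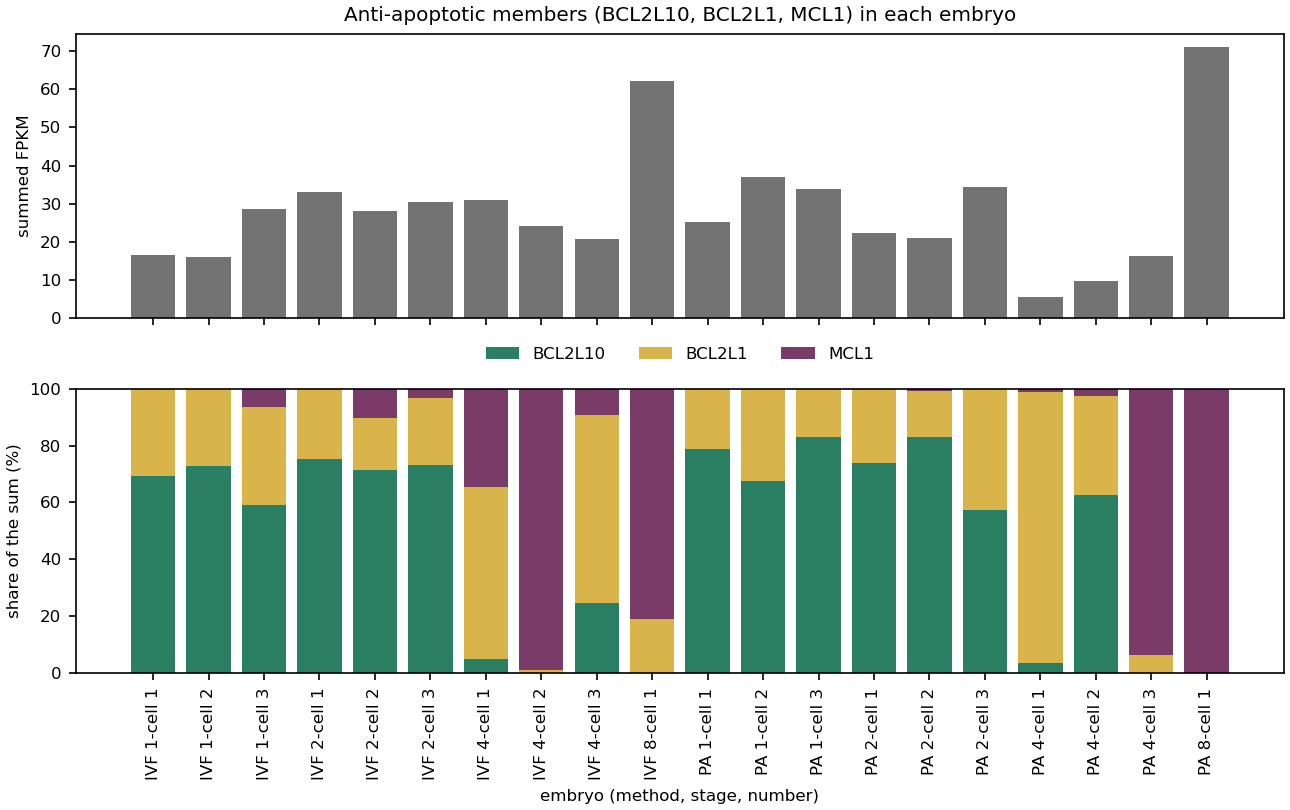
Summed FPKM of the anti-apoptotic members (top, y axis in FPKM) and the share of each in that sum (bottom, y axis in percent) for each of the 20 embryos on the x axis. BCL2L10 (green) leads in 1- and 2-cell embryos, the leading member differs among 4-cell embryos (PA 1 and 2 hold a near-repeated blastomere each), and MCL1 (purple) holds 81.0% and 99.8% at the 8-cell stage.

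The effectors were all but absent from the table's values. BAX was listed at 0 in all 42 cells, as were 659 of 15351 genes (4.29%). BAK1 had 12 reads in all, in 1 blastomere of each 8-cell embryo (0.0225 FPKM in IVF 8-cell 1-1 and 0.0935 FPKM in PA 8-cell 1-4). Neither passed the filter of at least 1 FPKM in 3 cells, so neither was tested, and ratios of BCL2L1 to BAX or MCL1 to BAK1 could not be formed. Because the row of BAX spans more than the RefSeq gene (54222341 to 54228150), and housekeeping genes were also at 0 in single cells, the zeros say only what the table lists.

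BID, the BH3-only protein that caspase 8 cleaves to engage BAX and BAK1, rose more than the other tested members in PA. In IVF the rises of MCL1 and BAD from the 1- to the 8-cell stage were larger (5.17 and 3.63, against 3.27 for BID, on the log2 scale). This order was not tested. In the 9 IVF 1- and 2-cell cells BID had at most 2 reads, and was listed at 0 in 7 of them. The 9 PA cells of these stages all had reads, between 5 and 17 (0.0304 to 0.106 FPKM). This low PA level was present at the 4-cell stage too, at 0.0644 to 0.179 FPKM in 8 of 9 blastomeres. On the log2(FPKM + 1) scale such values are close to 0, and IVF over PA was -0.06 at the 1-cell (SE 0.732) and -0.11 at the 2-cell stage (SE 0.732), each with a limma adjusted p of 1.00.

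Single 4-cell blastomeres were the first with BID above 1 FPKM. These were IVF 3-2 with 32.0 FPKM (3597 reads), IVF 2-2 with 1.36 FPKM (126 reads) and PA 2-4 with 17.0 FPKM (1659 reads). Embryo means were 0.00254, 0.690 and 8.05 FPKM for IVF. For PA they were 0.0981, 4.34 and 0.105 FPKM. At the 8-cell stage the IVF blastomeres had 4.42, 0.0155 and 21.4 FPKM, and the PA blastomeres 262, 256 and 0.00774 FPKM. Thus 2 of 3 sisters carried BID in each embryo, and the third had 2 reads or fewer. In PA this was 1-4, with 3481 genes above 0, the fewest of the 42 cells, against 5656 and 5476 in its sisters. In IVF it was 1-2, with 6510 genes above 0, against 4839 and 6020. The PA blastomeres 1-1 and 1-2, with 44720 and 23694 reads, were above every other cell of the series, and the PA 8-cell mean of 173 FPKM was above 99.3% of all genes.

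From the 4- to the 8-cell stage BID rose by 6.54 in PA (SE 1.04, limma adjusted p = 0.000387), and the step of 1.95 in IVF (SE 1.04, limma adjusted p = 0.324) was not called. With the groups compared alone the PA call was lost (limma adjusted p = 0.170), as was that with both methods averaged (4.25, limma adjusted p = 0.154). The test of the steps against each other gave -4.59 (SE 1.46, limma adjusted p = 0.106) and was not called, where 2.86% of genes were. It was called with a pseudocount of 5 and without IVF 4-cell embryo 1 or PA 4-cell embryo 2 (limma adjusted p = 0.0390 and 0.0364). Relative to 1-cell embryos, BID rose by 3.27 in IVF (SE 1.04, limma adjusted p = 0.0408). The PA rise was 7.38 (SE 1.04, limma adjusted p = 0.000121). The IVF call was kept in 18 and the PA call in all 32 of the 32 alternatives. None of these could leave out the lone 8-cell embryo compared. At the step from the 4- to the 8-cell stage, median-ratio scaling gave a called rise of BID of 4.00 in IVF. The errors of BID rest in part on embryos near 0. At the 2-cell stage the SD between embryo means was 0.00424 in IVF and 0.0126 in PA on the log2(FPKM + 1) scale. In the PA 8-cell embryo the SD between sisters was 4.62, and no spread between 8-cell embryos was measured.

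BAD, a BH3-only protein that binds BCL-XL when it is not phosphorylated, was an 8-cell transcript in this table. It had at most 13 reads (0.439 FPKM, IVF 4-cell 3-4) in any 1- to 4-cell blastomere, and none in the 18 PA cells of these stages. The IVF 8-cell blastomeres had 0, 28.7 and 5.82 FPKM (885 and 160 reads in the latter pair), and the PA 8-cell blastomeres 0.0978, 0 and 3.62 FPKM (112 reads in the highest). The 3 cells at or above 1 FPKM that let BAD pass the filter were all 8-cell blastomeres, so BAD had to differ at this stage and its calls add nothing to the count of members. From the 4-cell stage the log2 change was 3.57 in IVF (SE 0.353, limma adjusted p = 2.75e-06) and 1.16 in PA (SE 0.353, limma adjusted p = 0.0412), and the difference between the steps was 2.41 (SE 0.500, limma adjusted p = 0.0143). These errors rest on embryos at or near 0. The PA call was lost in 14 of 18 fits without 1 embryo, and the call of the difference was kept in 25 of 30 alternatives, with limma adjusted p up to 0.495.

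BCL2L11, which encodes BIM, was found above 1 FPKM in 1 blastomere. IVF 4-cell 2-3 had 170.7 FPKM from 8044 reads, while its sister 2-2 was listed at 0 and the other 40 cells had at most 2 reads (0.0373 FPKM). All 21 PA cells were listed at 0. With 1 cell above 1 FPKM the gene did not pass the filter. In the same blastomere, MCL1 was 22.8 FPKM and BCL2L1 0.485 FPKM.

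**Figure D3:**
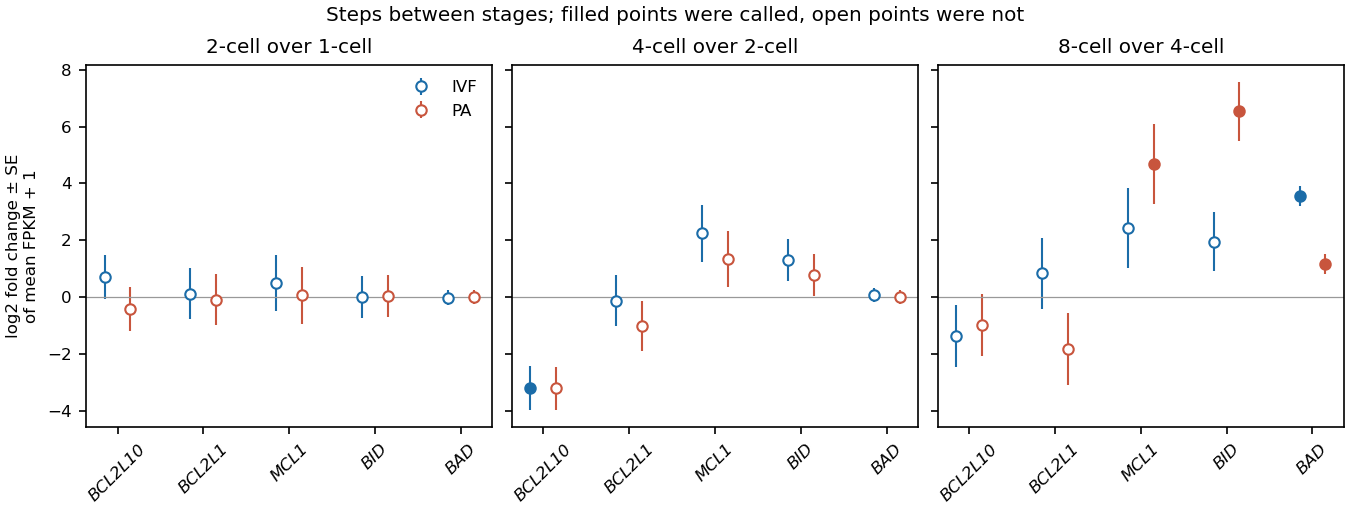
Log2 fold change of the mean FPKM + 1 of embryos (y axis) for the 5 tested members (x axis) at each step between stages, with standard errors from limma as bars (blue IVF, red PA). Filled points were called at an adjusted p below 0.05 and a fold of at least 2: BCL2L10 at the 4-cell step in IVF, and MCL1 and BID in PA at the 8-cell step. BAD is filled there in both methods, but its direction was fixed by the filter.

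By comparison, none of the 5 tested members was called between the 1- and 2-cell stage in either method, where 0% of all genes were called in IVF and 0.0986% in PA. For IVF, 216 of 8116 genes had an unadjusted p under 0.05 there. At the 4-cell step 1 was called in IVF and none in PA, and at the 8-cell step none in IVF and MCL1 and BID in PA, both higher, of the 4 tested members other than BAD. BAD, whose filter fixed its direction, is left out of these counts. Of all genes, 3.72% were called higher and 3.25% lower at that step in IVF, against 6.81% and 3.18% in PA. Between the 1- and 8-cell stages 3 of these 4 were called in each method, MCL1 and BID higher and BCL2L10 lower, and BCL2L1 was not called. BID reached 1 FPKM in 0 of 18 1- and 2-cell cells, and BCL2L10 in 0 of 6 8-cell blastomeres. They passed the filter through other stages, so a call of either could only have this direction, and these counts are a description. Of all genes, 6.03% were called higher and 8.23% lower in IVF, and 7.58% and 6.21% in PA. Under median-ratio scaling these shares were 20.1% and 1.59% in IVF, and 23.3% and 1.53% in PA. That scaling also called MCL1 and BID higher at the IVF 8-cell step (limma adjusted p = 0.0461 and 0.0268). No member was called between IVF and PA at the 1-, 2- or 4-cell stage. In that family, the number of genes with an unadjusted p under 0.05 was 332, 441 and 1134 of 8116, and none of them was a member. A p above the threshold does not show that the methods were alike, since the standard errors of the members ran from 0.250 to 0.988.

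The 4-cell blastomeres showed which members were found together. Among 18 of them, BCL2L1 was at or above 1 FPKM in 11, MCL1 in 7, BCL2L10 in 3 and BID in 3. BCL2L10 and MCL1 were both at or above 1 FPKM in 1 blastomere (IVF 1-4), BCL2L10 and BID in none, and MCL1 and BID in 2. In 5 blastomeres none of the anti-apoptotic members reached 1 FPKM. Without the near-repeated PA 1-4 and 2-1, the counts were 9 for BCL2L1, 7 for MCL1, 2 for BCL2L10 and 3 for BID, of 16. Sisters share an embryo and several cells come from 1 embryo, so these counts are given without a test. Over the 20 embryos, which share stage, Pearson's r of log2(FPKM + 1) was -0.79 between BCL2L10 and MCL1 and 0.63 between MCL1 and BID. Spearman's rho was weaker for both pairs, at -0.57 and 0.49.

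**Figure D4:**
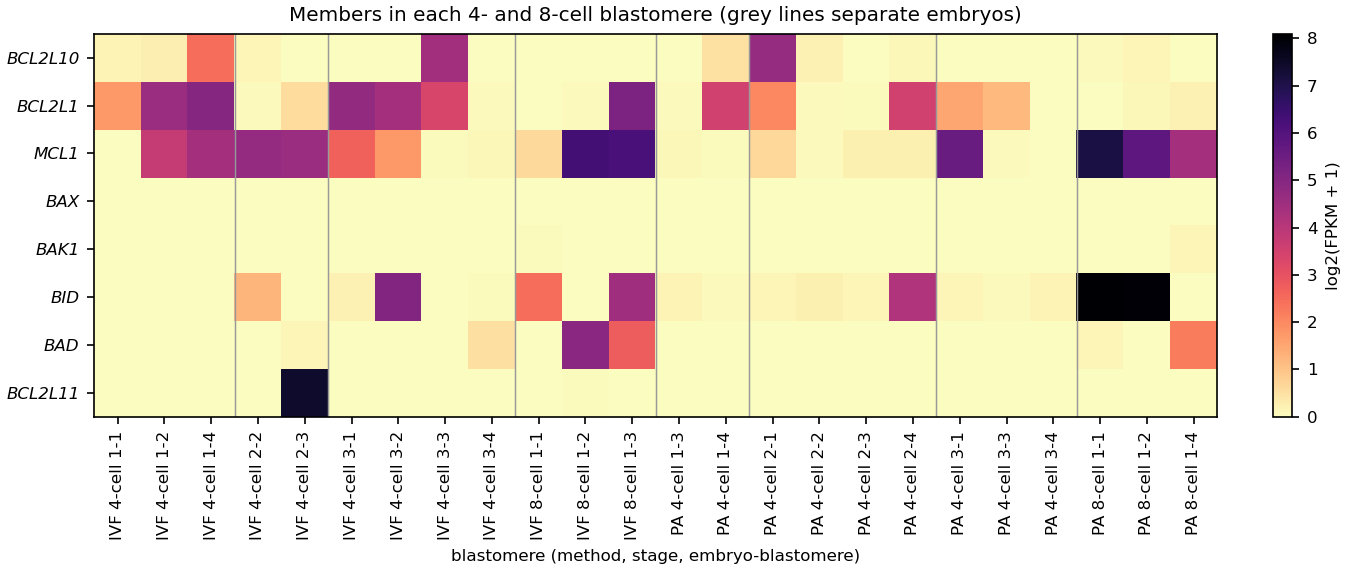
Level of the 8 members (rows) as log2(FPKM + 1), by colour, in each of the 24 4- and 8-cell blastomeres (columns, with grey lines between embryos). Sister blastomeres differ: BCL2L10 is highest in IVF 4-cell 3-3 and in PA 4-cell 2-1, whose library nearly repeats a 2-cell one. BCL2L11 is above 1 FPKM in IVF 4-cell 2-3 alone, and BID is highest in PA 8-cell 1-1 and 1-2.

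Sister blastomeres of 2-cell embryos already differed, most in MCL1 in IVF and in BCL2L1 and BCL2L10 in PA. At the 2-cell stage in IVF, the SD between sisters on the log2(FPKM + 1) scale was 0.36 for BCL2L1, 0.60 for BCL2L10 and 1.15 for MCL1. In IVF 4-cell embryos it was 1.82 for BCL2L1, 1.74 for BCL2L10, 1.64 for MCL1 and 1.79 for BID, and the SD between embryo means was 1.83, 0.56, 1.75 and 0.66, respectively. PA 2-cell embryos had 1.89 for BCL2L1, 1.74 for BCL2L10 and 0.16 for MCL1. There, PA 2-cell 3-2 had 28.4 and its sister 3-1 had 0.992 FPKM of BCL2L1, and PA 2-cell 1-1 had 31.8 and its sister 1-2 had 1.33 FPKM of BCL2L10. PA 2-cell 1-2 and 2-1 are the 2-cell copies of the near-repeated libraries, so the pairs of embryos 1 and 2 rest on them. The widest difference between sisters was that of BID in the PA 8-cell embryo, 8.03 on the log2 scale. The low sister there, 1-4, had the fewest genes above 0 of all cells (3481). Differences between sisters and noise of single libraries cannot be told apart.

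The genes most like the members with the highest mean over the 20 embryos, BCL2L10 and BID, are given as a description. The mean of BID, 9.74 FPKM, rests on the PA 8-cell embryo, and was 1.17 FPKM without it. That was below BCL2L1 (7.43), MCL1 (5.72) and BCL2L11 (4.49 FPKM), so its place among the highest rests on 1 embryo. By Pearson's r over the 20 embryos among 6876 tested genes with a symbol, those nearest to BCL2L10 were TYMS, which makes thymidylate for DNA synthesis (r = 0.92), ZSWIM3 (r = 0.91) and KIAA1841 (r = 0.90). TYMS had a mean of 88.8 FPKM in 1-cell embryos, 3.31 FPKM in the IVF and 0.126 FPKM in the PA 8-cell embryo. Those nearest to BID were MRPL51 (r = 0.97), a subunit of the mitochondrial ribosome, TFB2M (r = 0.94), a factor for mitochondrial transcription, and MCAT (r = 0.94), an enzyme of mitochondrial fatty acid synthesis. Without the PA 8-cell embryo, r was 0.93, 0.87 and 0.84. Spearman's rho, which gives a single high embryo less weight, was 0.67, 0.68 and 0.44 for them, which placed them at 122, 109 and 433 among the genes. It was 0.77, 0.76 and 0.69 for the genes near BCL2L10, at places 58, 77 and 253. The points share stage and library scaling.

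Other genes of the apoptosis pathway were called in both directions at the 8-cell stage. Of 51 looked up, 41 were in the table and 26 were tested. None was called between the 1- and 2-cell stage or between IVF and PA. FASLG, the death ligand, was the 1 gene of the 26 called at the 4-cell step in IVF, with a fall by 2.59 (limma adjusted p = 0.0123) from 5.82 ± 2.48 to 0.0889 ± 0.144 FPKM (SD, n = 3), and the PA group means were at or below 0.0304 FPKM. All 5 cells of at least 1 FPKM that let FASLG pass the filter were IVF 1- and 2-cell ones, so its direction was fixed as that of BAD was. At the 8-cell step, 1 of 26 was called in IVF, higher (3.85%, against 6.97% of all genes), and 3 in PA, 1 higher and 2 lower (11.5%, against 9.99%). Between the 1- and 8-cell stages 2 were lower in IVF (7.69%, against 14.3%), and 2 higher and 2 lower in PA (15.4%, against 13.8%). With both methods averaged, 2 of 26 were called at the 4-cell step, both lower (7.69%), where 336 of 8116 genes were called. These were FASLG and BNIP3L, the latter with a log2 change of -1.83 (limma adjusted p = 0.0443). At the averaged 8-cell step 6 of 26 were called, 4 higher and 2 lower (23.1%, against 12.6%). Between the 1- and 8-cell stages, the medians of the 26 were -0.39 in IVF and 0.13 in PA, against -0.77 and -0.58 over all genes.

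The inhibitor of apoptosis BIRC3 fell in both methods from the 1- to the 8-cell stage. In IVF it fell by 4.23 (limma adjusted p = 0.00961), from 20.1 ± 9.26 FPKM (SD, n = 3) to 0.0379. In PA it fell by 3.56 (limma adjusted p = 0.0270), from 18.4 ± 5.95 FPKM to 0.593. XIAP, which binds and blocks caspases, rose in PA from the 4- to the 8-cell stage, with 1.39 ± 2.00 FPKM in 4-cell embryos and 36.2 FPKM in the 8-cell embryo (log2 change 4.28, limma adjusted p = 0.0218). PA 1-cell embryos had 13.5 ± 2.87 FPKM of it (SD, n = 3), and the change from there to the 8-cell stage, 1.38, was not called (limma adjusted p = 0.491). CASP6, an effector caspase, rose by 4.10 in IVF from the 4- to the 8-cell stage (limma adjusted p = 0.0423), from 0.551 ± 0.932 to 22.9 FPKM. BNIP3L, a mitophagy receptor with a BH3-like stretch, fell by 4.28 in IVF between the 1- and 8-cell stages (limma adjusted p = 0.00740), from 24.03 ± 5.26 to 0.266 FPKM (SD, n = 3), and the PA 8-cell embryo had 50.7 FPKM of it. The steps of BNIP3L from the 4- to the 8-cell stage differed by -4.66 (IVF minus PA, limma adjusted p = 0.0890), which was not called. USP9X, the deubiquitinase that stabilizes MCL1 protein, fell by 4.56 in PA at the 8-cell step (limma adjusted p = 0.00619), to 0.144 FPKM. The IVF 8-cell embryo had 23.3 FPKM, and the difference between the steps of the methods, 4.29 (limma adjusted p = 0.123), was not called. VDAC2, a channel that binds BAK1, and TMBIM6, a suppressor of BAX, rose in PA from the 1- to the 8-cell stage by 4.02 and 5.86 (limma adjusted p = 0.0420 and 0.00572).

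The FPKM of a nuclear gene also depend on what else is in the cell. Genes of the mitochondrial genome took 14.1% ± 7.06 of summed FPKM in IVF 1-cell and 13.5% ± 0.588 in PA 1-cell embryos (SD, n = 3), and 44.3% and 47.0% in the 8-cell embryos, respectively. Fewer genes were above 0 with each stage, from 8881 ± 934 in IVF 1-cell (SD, n = 3) to 5790 in the IVF 8-cell embryo. With the nuclear genes rescaled to 1 total, 9 of the 12 called results of the members other than BAD were called with the same sign. The other 3 had the same sign but were not called: BCL2L10 at the IVF 4-cell step (limma adjusted p = 0.0620), BID between the IVF 1- and 8-cell stages (0.0653) and MCL1 at the PA 8-cell step (0.0762).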

How the data were processed

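Single cells were reverse transcribed and amplified (Ansuper-seq) per the study's methods, while the labels give a Trizol extraction of oocytes. The authors trimmed the reads and used HISAT2 for mapping (Sscrofa11.1), StringTie for assembly and HTSeq for counting, and deposited FPKM per gene and cell. The members and gene lists were chosen with earlier results of these data known. Blastomeres of an embryo were averaged, and embryos were the replicates. Genes with at least 1 FPKM in 3 cells (8116) were tested as log2(FPKM + 1) with limma 3.58.1 (R 4.3.3, mean-variance trend) over 20 embryos in 8 groups, with Benjamini-Hochberg adjustment over all genes. A call needed an adjusted p below 0.05 and a fold of at least 2. Folds on this scale understate changes of low genes. That blastomeres of 1 number came from 1 embryo was taken from the sample labels, and separate ovaries per embryo are not stated, so p-values measure the spread between these embryos. Named were all members, the pathway genes called at a step within a method or between methods, and the 3 genes most like each of the 2 most abundant members. Alternatives changed the pseudocount, filter, scaling, averaging, spread, trend, threshold, pairing, near-repeated cells and single embryos. Values were summarised with Python 3.11.15, numpy 2.4.6, pandas 2.3.3 and matplotlib 3.10.9. The fits were tested on simulated data. An item withheld from the text is not reported here.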

Additional observations from a re-analysis of the deposited data

Results flagged for a closer look

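In groups of 4 to 10 cells, a cell whose gap to its nearest neighbour took up most of the range was looked at again. Of 14 pairs of member and group, 5 had such a cell on the log2(FPKM + 1) scale. Chance gives about 1 in 20 for independent, normally spread values, a share that does not carry over to sister blastomeres with many values near 0 and to pairs chosen for a cell of at least 1 FPKM. BCL2L10 was 24.4 FPKM in PA 4-cell 2-1, against 0 to 0.411 in the other cells, and this library nearly repeats PA 2-cell 2-1. MCL1 was 46.0 FPKM in PA 4-cell 3-1, against 0.0173 to 0.561. BID was 32.0 FPKM in IVF 4-cell 3-2, against 0 to 1.36, and 17.0 FPKM in PA 4-cell 2-4, against 0.0644 to 0.179. BCL2L11 was 171 FPKM in IVF 4-cell 2-3, against 0 to 0.0194. The step of BAD from the 4- to the 8-cell stage differed between methods by 2.41 on the log2 scale (IVF minus PA, limma adjusted p = 0.0143), with 1 embryo per method at the 8-cell stage. BAD entered the test through 8-cell blastomeres alone and its error rests on embryos at or near 0, and the call was lost in 5 of 30 alternatives, with a limma adjusted p of 0.495 at a pseudocount of 0.1, so that the value is a description.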

How the results depend on the processing

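Leaving aside BAD, whose filter fixed its direction, the 12 called results of the members had the same sign in every alternative, and 4 were called in all of them (MCL1 between the 1- and 8-cell stages of both methods, BCL2L10 and BID between those of PA). The sign for BID and BCL2L10 between these stages was bound by how they passed the filter. For comparisons with the 8-cell stage, no alternative left out the lone 8-cell embryo of the method. The number of members called, BAD included, moved by over 1.5 times as follows. At the IVF 4-cell step it went from 1 to 0 with a pseudocount of 0.1, no filter, nuclear rescaling, median-ratio scaling and the groups compared alone. At the PA 4-cell step it went from 0 to 1 with median-ratio scaling, means of log2 values, single blastomeres, no trend and without PA 4-cell 1-4 and 2-1. At the IVF 8-cell step it went from 1 to 0 with a filter of 5 FPKM and the groups alone, and to 3 with median-ratio scaling (the 1 was BAD, so this says nothing of stability). At the PA 8-cell step it went from 3 to 1 with nuclear rescaling, where BID was called, and with the groups alone, where BAD was. With both methods averaged, the 4-cell step went from 1 to 2 with median-ratio scaling and to 0 with the groups alone, and the 8-cell step from 3 to 1 with the groups alone. The difference between the 8-cell steps went from 1 to 0 with a pseudocount of 0.1, the filter of 5 FPKM, means of log2 values, single blastomeres, the groups alone and no trend, and to 2 with a pseudocount of 5 (the 1 was again BAD). Smaller moves were from 3 to 2 at the PA 8-cell step (pseudocounts of 0.1 and 5, no filter, the filter of 5 FPKM, median-ratio scaling, means of log2 values, single blastomeres and no trend) and with both methods averaged (pseudocount of 0.1 and the filter of 5 FPKM). Between the 1- and 8-cell stages, 4 went to 3 in 6 alternatives in IVF and in 7 in PA, and to 5 in PA with a pseudocount of 0.1. An alternative chosen after seeing the data, without PA 2-cell 1-2 and 2-1, moved the IVF 4-cell step from 1 to 0 and no other count. The cause was not tested; under the filter of 5 FPKM, BAD was not among the genes tested. BCL2L1 from the IVF 1- to the 8-cell stage, not called, was 0.86 and turned to -1.07 with means of log2 values and with single blastomeres, whereas median-ratio scaling gave a called 4.02. Leaving out 1 embryo gave 0 to 1 members called at the IVF and PA 4-cell steps, 0 to 2 and 1 to 3 at the IVF and PA 8-cell steps, 2 to 4 and 3 to 5 between the 1- and 8-cell stages of IVF and PA, and 1 to 2 for the difference between the 8-cell steps. With the embryo number as replicate block, members called went from 1 to 0 at the IVF 4-cell step, from 3 to 2 at the PA 8-cell step and from 4 to 3 between the PA 1- and 8-cell stages. The numbers were not found to pair embryos: r was above 0.1 in 4 of 45 pairs of same-numbered embryos. These 4 include all 3 of PA 2-cell with PA 4-cell embryos (0.36, 0.28 and 0.10), for which r was -0.01, 0.01 and -0.01 without the near-repeated PA 4-cell 1-4 and 2-1. BCL2L10 was not called at that step with the block either (limma adjusted p = 0.114). Median-ratio scaling moved the median of all genes from -0.77 to 0 between the IVF 1- and 8-cell stages, and genes called higher and lower from 302 and 264 to 967 and 169 at the IVF 8-cell step, and from 553 and 258 to 1199 and 329 at the PA one. Between the 1- and 8-cell stages they went from 489 and 668 to 1476 and 117 in IVF, and from 615 and 504 to 1709 and 112 in PA. Reads on genes per cell (lowest 3969856) limit the low values, and 1 embryo per method limits the 8-cell stage.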
